A study of Homo sapiens with 22 samples.

Results

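The response of 22Rv1 cells to dihydrotestosterone (DHT), the most potent natural androgen, was described from 4 of the 22 samples of a study of RNA bound by PSF. 22Rv1 is an established human prostate cancer line derived from a xenograft that relapsed after castration. PSF, also called SFPQ, is a nuclear RNA-binding protein of splicing and of the nuclear bodies called paraspeckles. Cells were held for 3 days in medium with 2.5% charcoal/dextran-stripped serum, which lowers steroids, and then received ethanol as vehicle or 10 nM DHT for 24 h. From each treatment there was 1 input library and 1 library of RNA recovered with PSF (PSF-RIP), so the contrast set 2 DHT against 2 vehicle libraries with the assay as a pairing factor. All 4 libraries share the line and the serum depletion, and no label says that the input and PSF-RIP library of a treatment came from separate cultures. The p-values therefore measure only how far DHT effects differed between the assays, a spread that may be technical. That spread was pooled largely over genes, so a standard error is not the gene's own spread. LNCaP, another androgen-responsive prostate cancer line, and a line labelled LTAD, grown in steroid-depleted serum, received the same treatments, with 4 libraries each, and serve only for comparison.

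Androgens are steroid hormones that enter cells and change transcription, raising some target genes and lowering others, at sites in DNA opened by pioneer factors such as FOXA1. In luminal prostate cells the best-known targets include the kallikreins KLK2 and KLK3 (prostate-specific antigen), the protease gene TMPRSS2 and the immunophilin gene FKBP5. Reads within introns come largely from RNA that has not been spliced and give a second view of the same genes.

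The libraries held 3014049 mapped reads (vehicle input), 2410114 (DHT input), 10439461 (vehicle PSF-RIP) and 5894375 (DHT PSF-RIP). Mitochondrial RNA took 18.1% and 14.7% of the input libraries and 0.733% and 0.483% of the PSF-RIP libraries, vehicle first. All 18 luminal prostate markers had reads in all 4 libraries and summed to between 4926 and 5545 CPM, exonic counts scaled to a common library size with TMM factors. Of 10 basal markers 8 or 9 had reads, summing to 76.6 to 112 CPM, with KRT14 at 0 in all 4 libraries. The neuroendocrine list reached 230 to 282 CPM, and the stromal and leukocyte list 42.8 to 78.5 with PECAM1 and VWF at 0 throughout. In such bulk libraries fewer cells of a type and less RNA per cell cannot be told apart.

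DHT changed the exonic reads of 2232 of 12627 genes tested (17.7%), of which 1072 were higher (8.49%) and 1160 lower (9.19%) at an adjusted p under 0.05. Among genes at or above the median level, the largest rises were those of FKBP5, AKAP12, MBOAT2 and DBI, and the largest falls those of CLDN11, HLA-DQB1, HGF and TRIB1. Changes of at least 2-fold were fewer, with 139 genes higher and 219 lower. Of the 2232 genes, 2196 had the same sign in the input pair and in the PSF-RIP pair, against 8378 of all 12627. The fit favours genes that change alike in both assays, so the first count follows in part from the calling. Across all 12627 genes the change in input and in PSF-RIP correlated with r = 0.54, a description across genes that share these 4 libraries. The median change over all genes was 0.00 on the log2 scale. Leaving out 1 library in a fit over all 3 lines, which gave 848 higher and 1287 lower genes with all libraries, left 601 higher and 834 lower without the vehicle input and 586 and 870 without the DHT input. Without the vehicle PSF-RIP library 189 were higher and 172 lower, and without the DHT PSF-RIP library 186 and 177, so the number of genes called rests mostly on the deeper PSF-RIP pair. DESeq2 called 180 higher and 124 lower with the same design, and edgeR without the assay as a factor called 0, with 317 genes at an unadjusted p under 0.05.

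**Figure D1:**
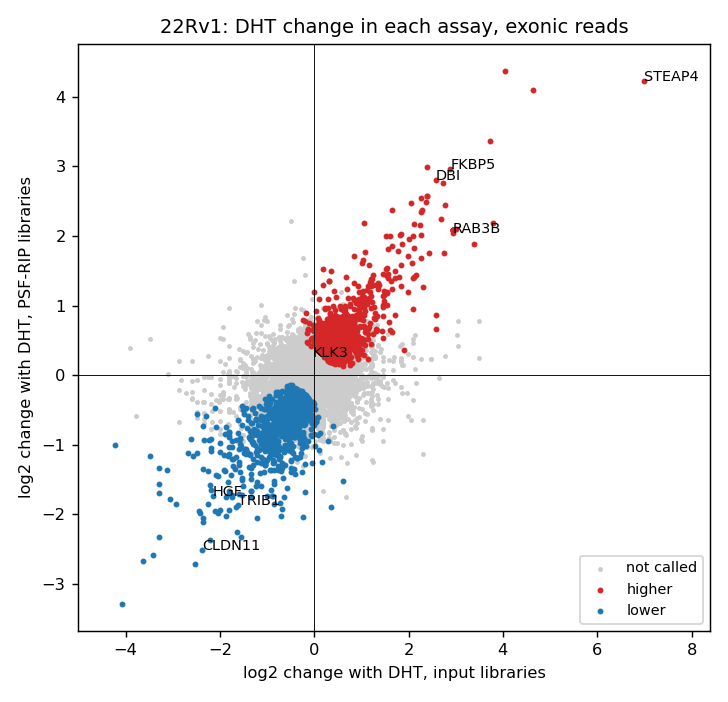
Log2 change with DHT in the input pair (horizontal axis) and in the PSF-RIP pair (vertical axis) of 22Rv1 for 12627 genes, each point a gene. Genes called higher (red, 1072) and lower (blue, 1160) lie mostly in the quadrants where both assays share a sign, and KLK3 lies near the centre.

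Among genes at or above the median level, FKBP5, a chaperone partner of steroid receptors that damps glucocorticoid receptor signalling, rose most. It had 306 exonic CPM in vehicle input and 2256 in DHT input, against 224 in vehicle PSF-RIP and 1757 in DHT PSF-RIP. Both DHT libraries lay far above both vehicle libraries, a 7.63-fold rise (log2 2.93 ± 0.10 SE, adjusted p = 3e-23 in edgeR, 2 libraries a treatment). SLC45A3 (prostein), a transporter gene of prostate epithelium, rose from 153 to 741 CPM in input and from 226 to 913 in PSF-RIP, 4.33-fold (log2 2.12 ± 0.09). Other large rises were of genes with different roles. AKAP12, a scaffold for protein kinase A, rose from 19.7 to 105 CPM in input and from 13.6 to 111 in PSF-RIP. NDRG1, a stress-responsive gene linked to differentiation, rose from 41.7 to 174 in input and from 33.5 to 189 in PSF-RIP. In each of these genes, chosen as large rises, both DHT libraries were higher than both vehicle libraries. Some genes below the median level rose further, such as STEAP4 (log2 5.22), THSD7A (5.18, with 1 and 25 reads in input and 4 and 97 in PSF-RIP) and PDE3A (4.64, with 2 and 60 and 10 and 140), of which THSD7A and PDE3A were chosen after their values were seen.

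DBI, the acyl-CoA-binding protein, was at 96.4 CPM in vehicle input and 577 in DHT input, and at 25.7 and 183 in the PSF-RIP libraries. MBOAT2, an acyltransferase that remodels phospholipids, was at 31.0 and 208 in input and at 17.1 and 119 in PSF-RIP. DBI thus rose 6.56-fold (log2 2.71 ± 0.10, adjusted p = 4.79e-22) and MBOAT2 6.87-fold (2.78 ± 0.12, adjusted p = 1.27e-20, both by edgeR). RAB3B, a small GTPase of regulated secretion, rose from 24.2 to 190 CPM in input and from 22.9 to 95.8 in PSF-RIP, with a log2 change of 2.94 in input and 2.05 in PSF-RIP. KLF4, a zinc-finger transcription factor of epithelial differentiation, was at 20.3 and 89.6 in input and at 31.1 and 142 in PSF-RIP. The other named rises were TMCC3 (log2 2.49), CHRNA2, a nicotinic receptor subunit (2.36), DOCK8, a guanine nucleotide exchange factor (2.19), and ERRFI1, a feedback inhibitor of the EGF receptor (1.92). All 12 named rises had both DHT libraries above both vehicle libraries. They were named as the largest rises with the same sign in both assays, so this follows largely from the choice.

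CLDN11, a tight junction claudin, fell most among genes at or above the median level, from 103 to 19.5 CPM in input and from 84.7 to 14.6 in PSF-RIP (5.65-fold lower, log2 -2.50 ± 0.14, adjusted p = 6.46e-17 by edgeR). HGF, the ligand of the MET receptor, fell from 341 to 76.6 in input and from 203 to 60.6 in PSF-RIP (3.72-fold lower, log2 -1.90 ± 0.10). In CLDN11 and in HGF both DHT values lay below both vehicle values, which the choice of the largest falls makes likely. MET itself fell as well, from 60 to 32 reads in input and from 291 to 101 in PSF-RIP (log2 -0.75 ± 0.16, adjusted p = 0.000927). TRIB1, a pseudokinase that guides proteins to degradation, was at 245 and 79.2 CPM in input and at 360 and 98.9 in PSF-RIP. SSTR1, a somatostatin receptor, was at 86.3 and 18.2 in input and at 60.0 and 19.7 in PSF-RIP. TSPAN8, a tetraspanin of the cell surface, was at 231 and 65.6 in input and at 124 and 39.1 in PSF-RIP. ALB, which encodes serum albumin and is best known in liver, was at 122 and 36.3 in input and at 147 and 44.4 in PSF-RIP, and fell 3.32-fold. IGFBP3, a binding protein for insulin-like growth factors, fell 2.76-fold. The remaining named falls were SYTL2 (log2 -1.63), SLC16A7, a monocarboxylate transporter (-1.59), GALNT10, a glycosyltransferase (-1.50), HLA-DQB1 (-2.02) and MIR663AHG (-1.59). HLA-DQB1 belongs to a family of near-identical genes whose unique reads can be divided between copies, so its level is uncertain. MIR663AHG rested on the PSF-RIP pair, with 805 and 156 reads there against 16 and 6 in input, and its call, held in the fit of 12 libraries, was lost there without either PSF-RIP library.

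**Figure D2:**
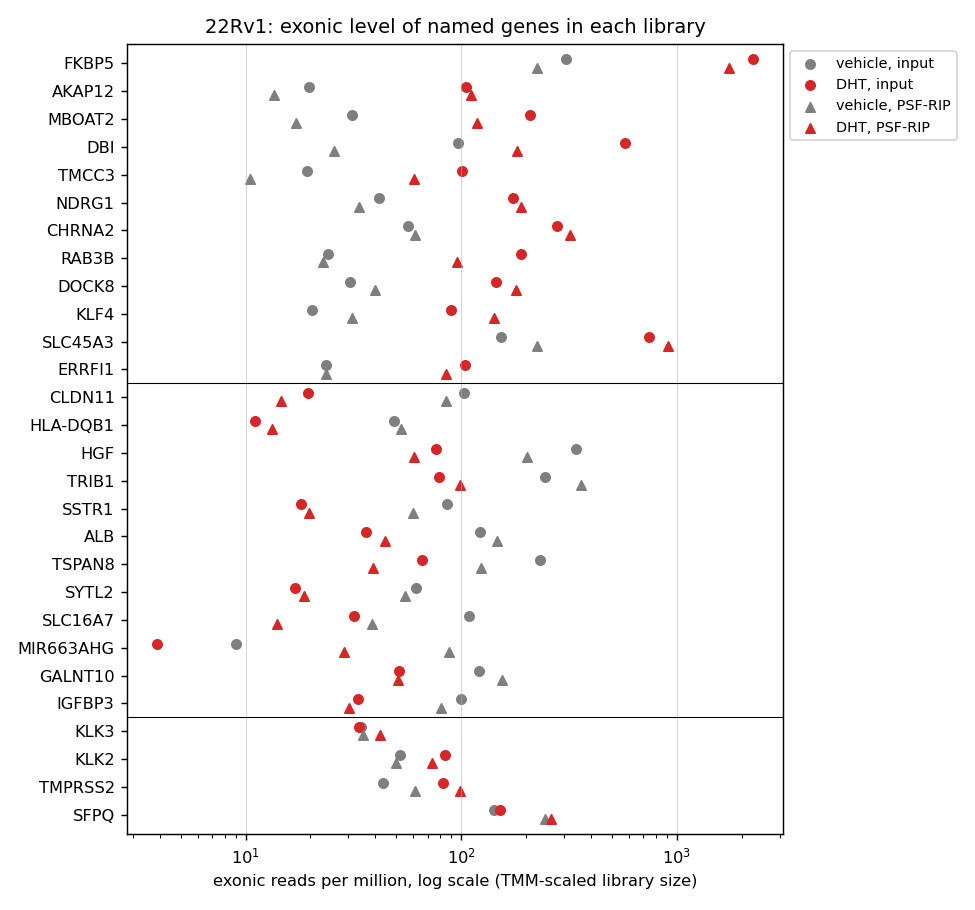
Exonic CPM (log axis) of the 12 largest named rises (top), the 12 largest falls (middle) and KLK3, KLK2, TMPRSS2 and SFPQ (bottom) in each of the 4 libraries of 22Rv1; circles are input, triangles PSF-RIP, grey vehicle and red DHT. By the rule that named them, red lies right of grey in each assay for the 12 rises and left for the 12 falls. KLK3 and SFPQ show little separation.

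Sequence just before the start of the chosen transcripts was read from GRCh37, the build of the files, to see what the largest responders share. The 250 bases before the start of the named gene with the largest rise, the named gene with the largest fall and the only one of the 24 named genes with the motif described next are shown, 5′ to 3′ on the gene's strand. Capitals mark the 6-base motif AGAACA or TGTTCT, the core to which several steroid receptors bind.
FKBP5, chr6:35656693-35656942, minus strand: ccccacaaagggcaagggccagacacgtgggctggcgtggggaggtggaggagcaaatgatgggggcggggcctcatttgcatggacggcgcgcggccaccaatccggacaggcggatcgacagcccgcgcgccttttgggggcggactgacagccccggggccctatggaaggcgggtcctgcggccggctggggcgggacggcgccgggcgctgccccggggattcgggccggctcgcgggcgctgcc
CLDN11, chr3:170136403-170136652, plus strand: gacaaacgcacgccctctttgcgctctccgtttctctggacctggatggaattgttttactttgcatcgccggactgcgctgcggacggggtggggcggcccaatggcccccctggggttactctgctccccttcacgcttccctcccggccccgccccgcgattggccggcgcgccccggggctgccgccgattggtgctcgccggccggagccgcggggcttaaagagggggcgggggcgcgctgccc
TSPAN8, chr12:71551780-71552029, minus strand: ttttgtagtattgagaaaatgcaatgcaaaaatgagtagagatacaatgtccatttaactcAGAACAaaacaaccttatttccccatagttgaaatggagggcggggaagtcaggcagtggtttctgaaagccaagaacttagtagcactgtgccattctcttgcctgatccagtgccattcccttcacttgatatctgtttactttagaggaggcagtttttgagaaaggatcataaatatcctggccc
The TSPAN8 window holds the motif 189 bases before the start, and TSPAN8 fell. The motif, searched on both strands, was in the windows of 0 of the 12 named rises and of 1 of the 12 named falls. Over larger groups the share was 8.58% of the 1072 higher genes, 8.36% of the 1160 lower genes and 7.78% of all 12627 genes tested. The arrangement of both motifs as an inverted repeat with a 3-base gap was in 0 of the 12627 windows. GC content of the windows was 50.0 to 81.6% in the named rises and up to 82.4% (GALNT10) in the named falls, with a median of 64.0% over all genes. A motif match describes these letters only, and no match says nothing of binding elsewhere. Other transcripts of a gene can start elsewhere: the FKBP5 intron chr6:35688326-35696284 lies upstream of the window shown.

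The familiar targets KLK3, KLK2 and TMPRSS2 had log2 changes between 0.19 and 0.75. KLK3 was at 34.4 and 33.8 CPM in input and at 35.0 and 42.0 in PSF-RIP (log2 0.19 ± 0.14, adjusted p = 0.369, edgeR). KLK3 values overlapped between treatments. KLK2 rose 1.51-fold, from 51.9 to 84.4 in input and from 49.8 to 73.1 in PSF-RIP (adjusted p = 0.000128), and TMPRSS2 1.68-fold, from 43.4 to 82.4 in input and from 60.9 to 98.6 in PSF-RIP. Of 4 chaperone genes for unbound steroid receptors, HSP90AA1 (log2 0.39), FKBP4 (0.41) and PTGES3 (0.38) rose, and HSP90AB1 was at 0.12 (adjusted p = 0.36). Of the pioneer and lineage factors, those that fell included GATA2, a pioneer factor (-0.88, 257 and 127 reads in input and 2287 and 717 in PSF-RIP), and HOXB13 (-0.25), a prostate lineage factor. GRHL2 of the same list rose (0.36), and FOXA1 did not pass (0.09, adjusted p = 0.517, edgeR). Of the 29 tested genes of this list, which also holds the chaperones, 6 rose and 2 fell. Of all genes 8.49% rose and 9.19% fell.

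Genes known to be induced by androgen were grouped in 4 lists by role, and 8.49% of all genes rose. Of 16 tested secreted and surface proteins 10 rose and 1 fell, with a median log2 change of 0.50. STEAP4, a metalloreductase, had 0 and 87 reads in vehicle and DHT input and 9 and 143 in PSF-RIP, and STEAP1 (log2 1.29) and STEAP2 (0.77) of the same family rose too. SPOCK1, a secreted proteoglycan, rose 2.83-fold, with 368 and 948 reads in input and 1108 and 1791 in PSF-RIP. The member that fell was ACPP, prostatic acid phosphatase, which had few reads (20 and 9 in input, 60 and 9 in PSF-RIP, log2 -1.55 ± 0.36). The 19 transcription factors and coregulators held 14 rises and 0 falls at a median of 0.70. TSC22D1 rose by 1.78, KLF9 by 1.51, SPDEF by 1.28 and ZBTB16 (PLZF) by 1.20 on the log2 scale. MAF rose by 3.84 from low levels (1 and 20 reads in input, 11 and 90 in PSF-RIP), and GREB1, a coactivator of steroid receptors, by 2.07.

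Of 24 signalling and chaperone genes 20 rose and 1 fell at a median of 0.74. Besides FKBP5, AKAP12, NDRG1, RAB3B and DOCK8 these included SGK1, a kinase also induced by glucocorticoids (2.91, from 2 to 12 reads in input and from 11 to 51 in PSF-RIP), INPP4B, a phosphoinositide phosphatase (1.59), BMPR1B, a receptor for bone morphogenetic proteins (1.34), and STK39 (1.27). RPS6KA3 was the member that fell (-0.43). The metabolic list had 16 rises and 2 falls among 27, with a median of 0.52. Its rises included ACSL3, which activates long-chain fatty acids (1.34), ELOVL5, which elongates polyunsaturated ones (0.98), and the polyamine genes SAT1 (1.65) and ODC1 (0.79). SLC2A12 (-0.75) and GPD1L (-0.57) fell. The list of sterol and fatty acid synthesis had 12 of 34 genes higher and 1 lower, with a median of 0.16. FASN, the fatty acid synthase, rose 2.88-fold, from 845 to 2104 reads in input and from 6470 to 11029 in PSF-RIP. HMGCS1 (0.78) and MVD (0.65) of the mevalonate pathway rose too, and the regulator SREBF1 was at 0.02 (adjusted p = 0.905).

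Of 21 genes known to be repressed by androgen, 13 fell, 1 rose and the median was -0.97, where 9.19% of all genes fell. ST3GAL1, a sialyltransferase, was abundant and fell 2.46-fold, with 1590 and 560 reads in input and 11165 and 2691 in PSF-RIP. FOLH1, which encodes prostate-specific membrane antigen, fell 2.15-fold, from 243 to 70 reads in input and from 1313 to 409 in PSF-RIP. SEMA3C, a semaphorin (-1.04), and SDC4, a surface proteoglycan (-1.39), fell too. UGT2B15, an enzyme that inactivates DHT by glucuronidation, had 22 and 3 reads in input and 59 and 7 in PSF-RIP (log2 -2.41 ± 0.41, adjusted p = 3.48e-05, edgeR), and near-identical relatives make its count uncertain. CLU (clusterin) rose instead, by 0.67. Among 11 tested genes of androgen synthesis and inactivation 2 rose, including HSD17B4 (0.65), and 3 fell, including UGT2B15 and SRD5A3 (-0.44).

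Over all genes tested, 8.49% rose and 9.19% fell. Luminal markers were divided, with 7 of 18 higher and 7 lower. The keratins KRT8 (1.31), KRT18 (1.20) and KRT19 (0.62) rose. Of the junction genes CDH1 (-0.53), CLDN4 (-0.61), CLDN3 (-0.50) and EPCAM (-0.35) fell, while CLDN7 did not pass (0.006). Genes of the cell cycle had medians nearer 0. Of 35 mitotic genes 6 rose and 0 fell (median 0.12), among them CDC20 (0.54), and of 38 replication genes 6 rose and 0 fell (median 0.17), among them GINS3 (0.64). Glycolysis and hypoxia genes had 11 rises and 1 fall among 23, with LDHA at 0.70 and HIF1A at 0.63. The secretory list of the unfolded protein response had 11 rises and 3 falls among 32. Its sensors were divided: ERN1 rose (1.13), ATF6 fell (-0.28) and EIF2AK3 did not pass (0.03). XBP1 fell too (-0.27). Of 51 splicing factors 11 rose and 0 fell, at a median of 0.18, among them SF3B2 (0.53) and HNRNPC (0.44). Of 46 cytosolic ribosomal protein genes 0 passed by edgeR, and their median was -0.02.

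SFPQ itself had 142 and 151 CPM in vehicle and DHT input and 244 and 262 in PSF-RIP (log2 0.10 ± 0.09, adjusted p = 0.516, edgeR). Its partners of the same family, NONO (-0.03) and PSPC1 (0.17), did not pass either. NEAT1, the scaffold RNA of paraspeckles, was at -0.20 (adjusted p = 0.119). MALAT1, a nuclear long noncoding RNA, fell slightly (log2 -0.31 ± 0.11, adjusted p = 0.0438), a call that was lost under every alternative with a test other than leaving out mitochondrial genes or the expression filter. Of the 13 genes of this list, MALAT1 was the only one that passed.

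**Figure D3:**
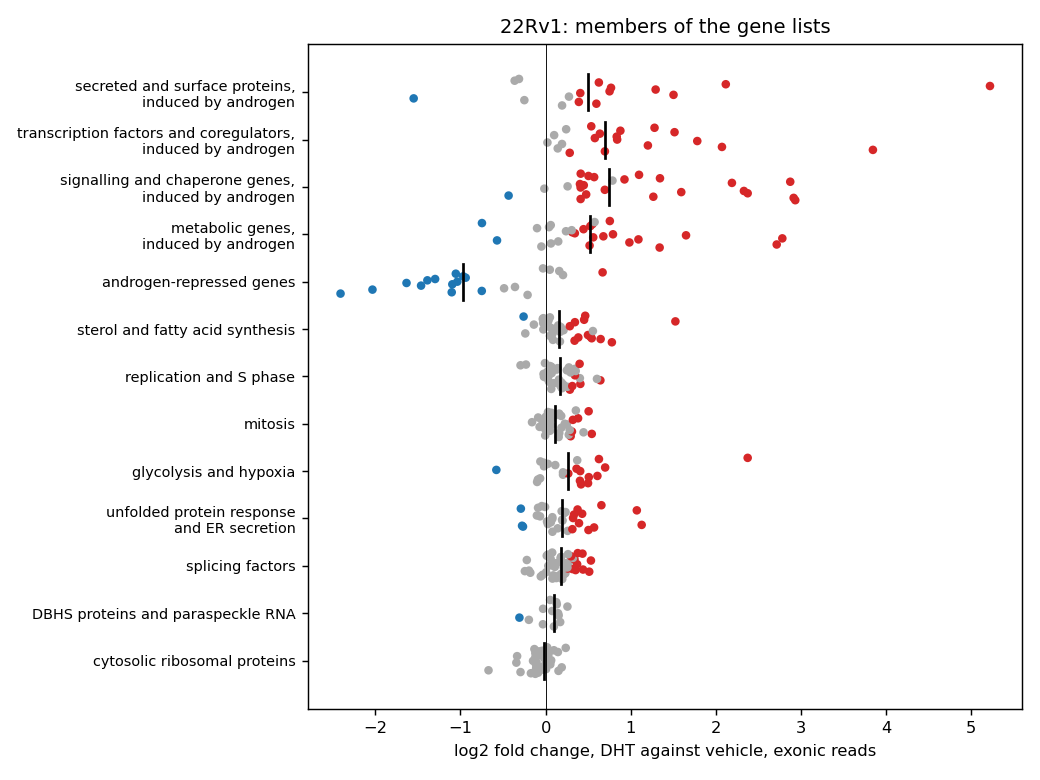
Log2 fold change (DHT against vehicle, exonic reads, 22Rv1) of every tested member of 13 gene lists, red where higher, blue where lower and grey where not called; black bars are list medians. The 4 androgen-induced lists have medians from 0.50 to 0.74 and the androgen-repressed list -0.97, while ribosomal protein genes centre at -0.02.

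Genes that passed on both exons and introns moved almost always in the same direction. Of 10547 genes tested on introns, 4.58% passed, with 271 higher (2.57%) and 212 lower (2.01%). Among 911 exonically higher genes with introns tested, introns of 188 were higher and of 0 lower. Among 910 exonically lower genes, introns of 124 were lower and of 2 higher. These are the same libraries, so the intron counts describe the same response and add no independent test. A fit of the intronic reads of all 12 libraries of the 3 lines, chosen after seeing the data, gave 172 higher and 182 lower genes. Leaving out 1 library of 22Rv1 within that fit gave 35 and 14 without the DHT PSF-RIP library, 45 and 15 without the vehicle PSF-RIP library, 126 and 111 without the DHT input and 127 and 112 without the vehicle input. Scaled with the exonic library sizes, which moved the median of all genes to -0.23, 71 genes were higher and 192 lower.

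MBOAT2 introns had 11 and 45 reads in vehicle and DHT input and 56 and 249 in PSF-RIP (log2 3.02 ± 0.22, adjusted p = 2.65e-40, edgeR), close to its exonic change of 2.78. FKBP5 introns had 142 and 669 reads in input and 769 and 2151 in PSF-RIP (2.54 ± 0.13). The increase ran along the gene. The longest of the FKBP5 introns summed, chr6:35610621-35656508, held 54 and 234 reads in input and 328 and 916 in PSF-RIP. The last, chr6:35543720-35544770, held 3 and 14 in both assays. DOCK8 (2.11), CHRNA2 (2.18) and KCNN2, a potassium channel gene (2.31), were also among the largest intronic rises. The UGT1A cluster on chromosome 2, whose genes share their last exons and inactivate many small molecules by glucuronidation, rose as well. UGT1A4 introns had 11 and 42 reads in input and 30 and 113 in PSF-RIP (2.74 ± 0.28). Of this cluster 9 symbols were called, but they count mostly the same reads and stand for 1 locus whose expressed member these counts do not resolve. The introns of KLK2 (0.75) and TMPRSS2 (0.93) rose too. KLK3 introns had 12 and 22 reads in input and 98 and 74 in PSF-RIP (0.76 ± 0.27, adjusted p = 0.0808).

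NTNG1 (netrin-G1) introns went from 36 to 6 reads in input and from 422 to 49 in PSF-RIP (log2 -2.10 ± 0.22, adjusted p = 3.68e-18, edgeR). CNTNAP2, a neurexin-family gene, went from 68 to 27 in input and from 871 to 129 in PSF-RIP (-1.56). CLSTN2 (-1.79), NEGR1 (-1.39) and RALYL (-1.41) fell likewise. TRIB1 (-1.97), HGF (-1.77) and SYTL2 (-1.43), which fell on exons, fell on introns. ARF5, a small GTPase of membrane traffic, was apart: its introns went from 93 to 3 reads in input and from 150 to 55 in PSF-RIP (-1.36), while its exons were at 0.08 (adjusted p = 0.603). All 24 named intronic genes passed in the fit of 12 libraries. Within that fit the calls of CNTNAP2, CLSTN2, NEGR1, RALYL, LINC00673 and PCED1B were lost without either PSF-RIP library, and that of NTNG1 without the vehicle PSF-RIP library. The UGT1A calls were lost without the DHT PSF-RIP library, and that of ARF5 without either input library.

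The genes with lower introns were long. Their median span was 204 kb, against 44.9 kb for genes with higher introns and 34.8 kb for all 10547 genes, and 155 of the 212 spanned over 100 kb, against 76 of the 271 and 2155 of the 10547. On exons the lower genes were longer too, with a median of 45.2 kb against 22.5 kb for the higher genes and 26.5 kb for all. Intronic falls were called in 17.4% of 437 genes over 300 kb and in 0.43% of 1625 genes under 10 kb. In the PSF-RIP pair the median intronic change, relative to all genes, went from 0.17 in genes under 10 kb to -0.30 in genes over 300 kb. In the input pair it went from 0.00 to -0.09. In LNCaP the PSF-RIP pair ran the opposite way, from -0.13 to 0.49, and in LTAD from -0.01 to 0.02. Each of these is 1 pair of libraries, so the differences between lines were not tested. The share of intronic among intronic and nuclear exonic reads was 22.6% in vehicle PSF-RIP, 19.1% in DHT PSF-RIP, and 19.7% and 18.7% in the inputs, and its part in the pattern was not tested.

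**Figure D4:**
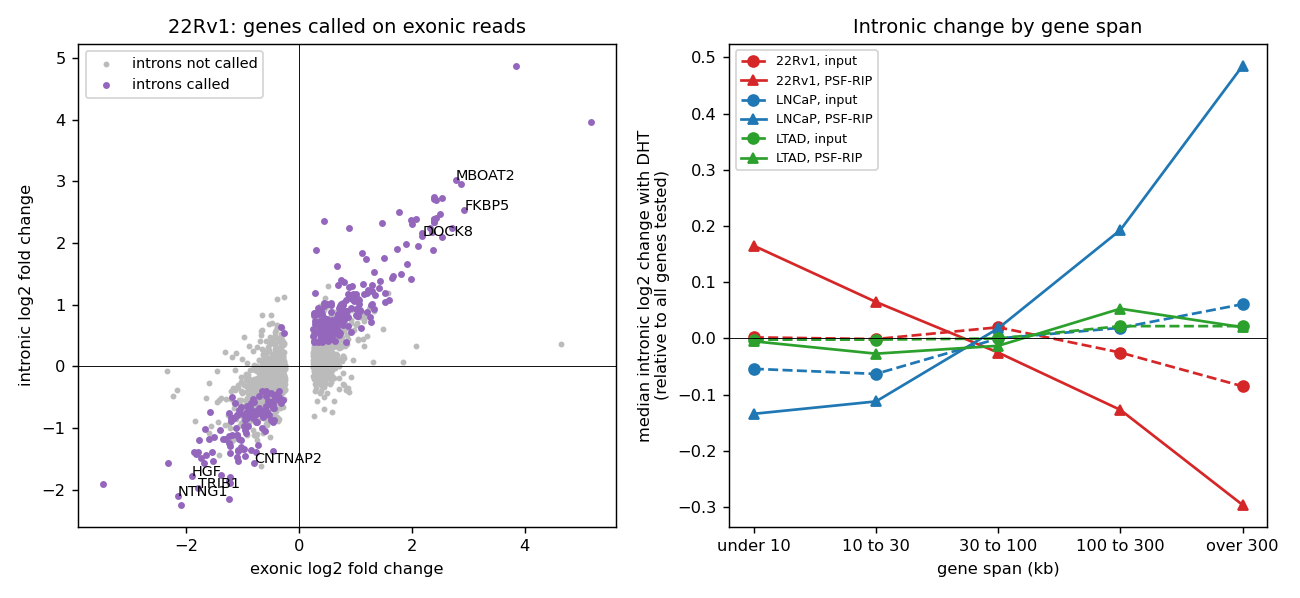
Left, exonic against intronic log2 fold change with DHT for genes called on exons in 22Rv1, purple where introns were called; nearly all purple points lie in the quadrants of equal sign. Right, median intronic log2 change with DHT by gene span (kb) relative to all genes tested, 1 line for each cell line and assay (dashed input, solid PSF-RIP); 22Rv1 PSF-RIP falls to -0.30 and LNCaP PSF-RIP rises to 0.49 in genes over 300 kb.

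The response was then set against that of LNCaP and LTAD. Of 13772 genes tested, the log2 change with DHT was higher in 22Rv1 than the mean of the other lines for 209 (1.52%) and lower for 502 (3.65%), together 5.16%. Among named genes it was lower for TMPRSS2, KLK2 and KLK3 and higher for KLF4, ABRACL and TMTC1. Among 1070 genes higher in 22Rv1, 286 were higher and 30 lower in LNCaP, and 485 higher and 53 lower in LTAD. Among the 1152 lower genes, 192 were lower and 24 higher in LNCaP, and 398 lower and 41 higher in LTAD. In the same fit 13.0% of all genes passed in LNCaP (6.29% higher, 6.67% lower) and 23.8% in LTAD (12.1% higher, 11.7% lower). Without the vehicle input the contrast gave 129 and 341 genes, without the DHT input 132 and 332, and without either PSF-RIP library 57 and 118.

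TMPRSS2 rose by 0.72 in 22Rv1 against 3.67 in LNCaP and 3.54 in LTAD, a difference of -2.88 ± 0.16 from their mean (adjusted p = 2.45e-72, edgeR). KLK2 rose by 0.56 against 3.61 and 2.04 (difference -2.26), and KLK3 was at 0.16 against 2.97 and 1.75 (-2.20 ± 0.23). For these genes both other lines exceeded 22Rv1. PMEPA1, an inhibitor of TGF-β signalling (0.38 against 2.47 and 2.74), and CENPN, a centromere protein (0.50 against 3.24 and 3.21), showed the same order. CHRNA2, a large rise in 22Rv1, rose by 6.06 and 5.80 elsewhere. FKBP5 differed less, with 2.90 against 2.87 and 3.86 (-0.46 ± 0.13, adjusted p = 0.0119), and against LNCaP alone its difference was 0.03.

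Other differences concern genes with almost no reads in the other lines. HPGD, which degrades prostaglandins, had 196 and 372 reads in 22Rv1 input, and 0 and 1 in LNCaP and 0 and 0 in LTAD input. GUCY1A2, a guanylate cyclase subunit, had 1762 and 1240 reads in 22Rv1 input against at most 24 in any library of the other lines, and HSPB6 had 871 and 791 against at most 12. The fitted fold changes of these genes in LNCaP and LTAD depend on a handful of reads, so their differences (HPGD -3.85, GUCY1A2 -3.26, HSPB6 -3.02) are no measure of size. PLXNA2 (1.80), a semaphorin receptor with at most 20 reads in LNCaP and LTAD, is limited in the same way. The calls of HPGD, HSPB6 and PLXNA2 were lost without either PSF-RIP library of 22Rv1.

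KLF4 rose by 2.14 in 22Rv1 and 1.47 in LTAD and was at -0.27 in LNCaP (difference 1.54 ± 0.19, adjusted p = 2.18e-13, edgeR). ABRACL had 91 and 261 reads in 22Rv1 input and 275 and 432 in PSF-RIP, rising by 1.49, and was at -0.18 in LNCaP and 0.13 in LTAD (difference 1.52 ± 0.21). Both genes had fewer reads in LNCaP, with 11, 10, 78 and 54 for KLF4 and 16, 23, 54 and 32 for ABRACL. SLC12A2, a sodium-potassium-chloride cotransporter, was at 0.20 in 22Rv1 and fell by 1.46 in LNCaP and by 1.08 in LTAD (difference 1.47). BARD1, the partner of BRCA1 (difference 1.27), RDH10, a retinol dehydrogenase (1.30), and CHST2, a sulfotransferase (1.25), differed in the same direction, as did TMTC1 (1.78). CHST2 rose by 1.09 in 22Rv1 and by 0.88 in LTAD and was at -1.20 in LNCaP, so its difference lay mainly with LNCaP. The call of RDH10 was lost without either PSF-RIP library of 22Rv1. TRIB1 fell in 22Rv1 (-1.82) but was at -0.20 in LNCaP and -0.28 in LTAD, a difference of -1.58 ± 0.14. SYTL2 fell in all 3 lines (-1.67, -0.97 and -1.51) with no difference called (adjusted p = 0.203).

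In each of the 4 androgen-induced lists, members passed the test of the difference more often as lower than as higher in 22Rv1. Of all genes, 3.65% passed as lower and 1.52% as higher. The lists hold genes already known to respond to androgen, and in which lines they became known was not examined. A list drawn from a compared line would favour that line, so these counts are a description, and no list was tested as a whole. The log2 change was lower in 22Rv1 for 7 and higher for 2 of 17 secreted and surface proteins, and lower for 9 and higher for 3 of 19 transcription factors and coregulators. It was lower for 6 and higher for 1 of 26 signalling and chaperone genes, and lower for 11 and higher for 3 of 28 metabolic genes. Median changes of the transcription factors and coregulators were 0.67 in 22Rv1, 0.91 in LNCaP and 1.47 in LTAD. Of 35 mitotic genes, 35 were higher in LNCaP (median 2.14) and 19 were lower in LTAD (median -0.46). In 22Rv1 their median was 0.07, and 16 passed as lower than the mean of the other lines. Replication genes rose in LNCaP (26 of 38) and fell in LTAD (31 of 38), with a median of 0.13 in 22Rv1. In both lists LNCaP and LTAD responded in opposite directions, so their mean hides how 22Rv1 differs from each.

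**Figure D5:**
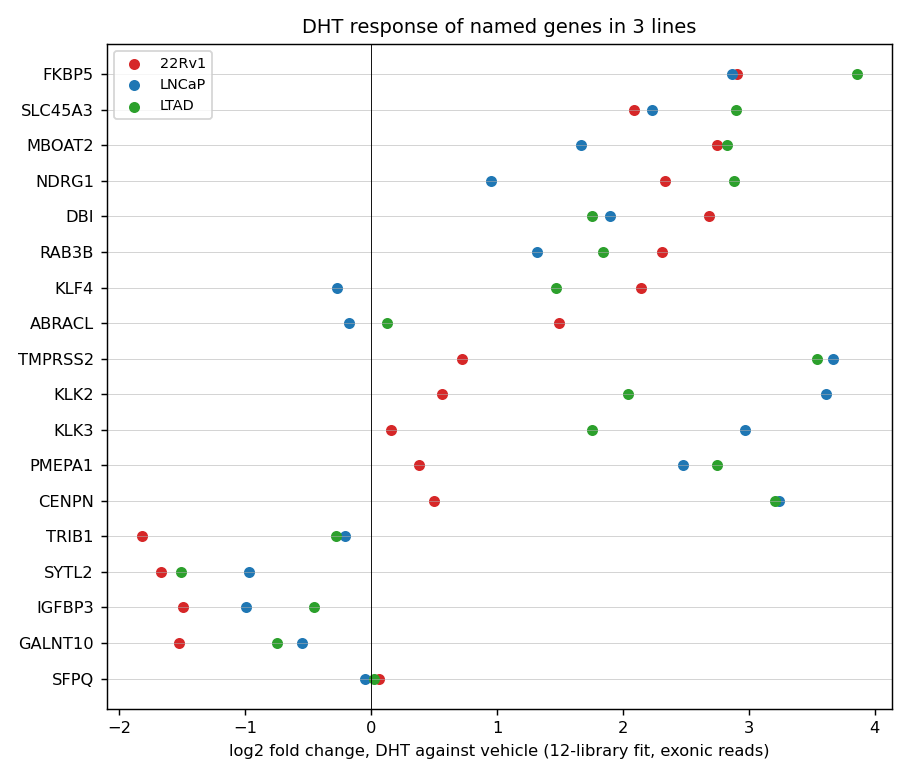
Log2 fold change with DHT (12-library fit, exonic reads) of 18 genes in 22Rv1 (red), LNCaP (blue) and LTAD (green), 1 point a line. TMPRSS2, KLK2, KLK3, PMEPA1 and CENPN lie lowest in 22Rv1, KLF4 and ABRACL highest, and SFPQ lies near 0 in every line.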

How the data were processed

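Reads were mapped with TopHat2 2.1.0 and Bowtie2 2.2.6, per the submitters' processing notes, and the authors deposited raw read counts per RefSeq exon, intron and transcript row on hg19, for unique reads per the file headers. Whether strand was used in counting is not given in the sources used here. Of 48606 transcript rows, the row with the highest mean count was kept per symbol, and 51 symbols with near-identical positions were dropped, leaving 20243. Distinct introns (146224 kept of 169989) were summed per gene. Counts were fitted in edgeR 4.0.16 (R 4.3.3) with TMM scaling, its expression filter, quasi-likelihood tests and Benjamini-Hochberg adjustment over all genes tested, with assay and treatment as terms and 1 residual degree of freedom. The lines were compared in 1 fit of 12 libraries. Standard errors are the log2 change divided by the root of the F statistic. On exons the spread pooled over genes had a weight of 35.5 degrees of freedom against 1 of the gene itself. On introns and in the fit of 12 libraries its weight had no finite limit. DESeq2 1.42.0 was an alternative. The procedure was tested on simulated data.

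Named genes are, per comparison on exons or introns, the 12 largest rises and falls past the threshold with the same sign in both assays and a mean level at or above the median, the 8 highest and 8 lowest for the contrast of lines, SFPQ, NONO, PSPC1, NEAT1, MALAT1, KLK3, KLK2, TMPRSS2 and FKBP5, and up to 4 members of each of 21 lists with the smallest p. Some genes that the rule names are not reported here. Further list members given were chosen after their values were seen. The members, lists and tests were chosen with earlier results of these data known. A set of LNCaP libraries whose labels contradict each other was not used, and 12 columns of per-sample values could not be matched to a sample.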

Additional observations from a re-analysis of the deposited data

Results flagged for a closer look

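The change with DHT differed between 22Rv1 and the mean of LNCaP and LTAD, by the edgeR test of that difference, for 209 genes in the upward and 502 in the downward direction. Values are log2 differences. The change was lower in 22Rv1 for HPGD (-3.85), CHRNA2 (-3.61), GUCY1A2 (-3.26), HSPB6 (-3.02), TMPRSS2 (-2.88), CENPN (-2.72), KLK2 (-2.26), PMEPA1 (-2.23), KLK3 (-2.20) and FKBP5 (-0.46). It was higher for PLXNA2 (1.80), TMTC1 (1.78), KLF4 (1.54), ABRACL (1.52), SLC12A2 (1.47), RDH10 (1.30), BARD1 (1.27) and CHST2 (1.25). HPGD, GUCY1A2 and HSPB6 had almost no reads in the other lines, and each line has 1 library for each treatment and assay.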

How the results depend on the processing

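On exons, DESeq2 gave 180 genes higher and 124 lower, thinning all libraries to the smallest 623 and 741, and dropping the assay term 0 and 0. The fit of 12 libraries gave 848 and 1287, and leaving out 1 library of 22Rv1 within it 186 to 601 higher and 172 to 870 lower. The 24 named exonic genes kept their calls under DESeq2, thinning and the other scaling, filter and transcript choices, and lost them without the assay term. On introns, DESeq2 gave 31 and 16, introns free of GENCODE exons 76 and 41 (7500 genes tested), and exonic library sizes 71 higher and 192 lower. Both of these last settings were chosen after seeing the data. A fit of 12 libraries, also added then, gave 172 and 182, and leaving out 1 library of 22Rv1 within it 35 to 127 and 14 to 112. For the contrast of lines, DESeq2 gave 36 and 106, LNCaP alone 326 and 568, LTAD alone 435 and 612, and leaving out 1 library 57 to 132 and 118 to 341. HPGD and HSPB6 lost their calls under DESeq2 and against either line alone, GUCY1A2 against LNCaP alone, CHST2 and PLXNA2 under DESeq2 and against LTAD alone, and RDH10 under DESeq2.

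The FKBP5 difference between lines turned from -0.46 to 0.033 against LNCaP alone. Direction also turned for KLK3, NONO, PSPC1 and SFPQ in comparisons where they had not passed. Leaving out 1 library, KLK3 on exons ranged from -0.047 to 0.231, NONO from -0.250 to 0.049 and PSPC1 from -0.103 to 0.210, and PSPC1 in the contrast of lines from -0.172 to 0.132. PSPC1 was at -0.039 against LTAD alone. SFPQ introns ranged from -0.224 to 0.089 leaving out 1 library, and were at -0.013 with DESeq2, -0.023 in the fit of 12 libraries and -0.211 with exonic library sizes. The causes were not tested. The assay served as the pairing factor in 22Rv1, and the fit without it is given above. The input libraries, with 2410114 and 3014049 mapped reads, limit what can be seen for low genes.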
